A study of Mus musculus with 34 samples.

Results

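The interval from day 1 to day 3 after spinal cord injury was compared between wild-type (WT) and trkB.T1 null (KO) mice, to ask whether genes that lagged in the injured KO cord at day 1 had drawn level by day 3. The comparison is the interaction (KO day 3 minus KO day 1) minus (WT day 3 minus WT day 1), in log2 units, so a value above 0 means a larger rise, or a smaller fall, in the KO cord. It used 18 of the 34 Affymetrix arrays of the study, namely 5 WT and 4 KO arrays at day 1 and 4 WT and 5 KO arrays at day 3, and no sham or day 7 array. Where a gene had several probe sets, the one brightest on average across the 34 arrays stood for it, and the 11993 of 18193 genes above log2 4 on at least 4 of those arrays were tested.

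All 4 groups were injured, so the sham-operated state does not enter these values. The WT day 1 and WT day 3 groups were wild-type mice 1 and 3 days after spinal cord injury, and the KO day 1 and KO day 3 groups were knockout mice at the same times. The labels name spinal cord as the tissue of every sample. The strain, age, sex, cord segment, time of day and number of animals behind an array were not given in the sources used here, so a p-value here weighs a difference only against the spread of these samples, which may be technical, and precision is limited by how few arrays there are. The samples were whole tissue, in which fewer cells of a type and less RNA per cell cannot be told apart.

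TrkB, encoded by Ntrk2, is the receptor of brain-derived neurotrophic factor, and trkB.T1 is a truncated form of it without the kinase domain that is abundant on astrocytes. After cord injury, resident microglia, astrocytes, precursor cells and arriving leukocytes divide in the first days. Dividing cells make the genes of the G1/S transition and DNA replication first, largely under E2F factors, and then those of G2 and mitosis, whose promoters often hold CCAAT boxes and a cell cycle homology region (CHR).

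The labels were first set against the deleted transcript. Of the 6 Ntrk2 probe sets above the limit, 2 were high on every WT array and low on every KO array. Probe set 1420838_at averaged log2 10.2 on the WT day 1 arrays and 4.09 on the KO day 1 arrays, then 10.7 and 3.90 at day 3. Probe set 1435196_at averaged 9.14 and 9.09 on the WT arrays at the 2 times and stood at 2.83 on all KO arrays. The brightest Ntrk2 probe set was of another kind, with 10.14 in WT and 10.75 in KO at day 1 and 9.73 and 9.96 at day 3. No Ntrk2 probe set passed the test of the interaction, and the interval of the highest one ran from -1.17 to 0.39.

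Of the defining markers, those of neurons, oligodendrocytes and astrocytes were above log2 4 on all 18 arrays. Of the 3 motor neuron markers, Chat and Slc18a3 were under 4 on all 18, and Prph was above 4 on all 18. The lymphocyte markers Cd3e, Cd3g and Cd79a were under 4 on all 18. Array medians over the tested genes ran from 8.02 to 8.10. The arrays that stood apart were WT day 3 replicate 2 and KO day 3 replicates 3 and 4, 3 in all, with limma array weights of 0.118, 0.21 and 0.269 against 0.83 to 3.66 on the other 15. The mean level over 14 skeletal muscle genes was 13.31 on KO day 3 replicate 3 and 10.83 on KO day 3 replicate 1, against 4.48 to 5.31 on the other KO day 3 arrays, 6.34 to 8.99 on the WT day 3 arrays and 3.49 to 7.76 at day 1. The mean over 25 neuron genes was 9.74 and 9.83 on KO day 3 replicates 3 and 4 and 10.39 or more on every other array. On WT day 3 replicate 2 the mean over 16 homeostatic microglia genes was 8.24 against 9.30 to 9.46 on the other WT day 3 arrays. Results are therefore also given for the 15 arrays without these 3, a set chosen after the data were seen.

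The interaction passed the test for 25 genes. It was above 0 for 24 genes, or 0.2% of those tested, and below 0 for 1 gene, or 0.00834%. Of the 24 genes, 16 were in the lists of G1/S genes (4) or G2/M genes (12), and the other 8, Atad2, Cdca3, Cdca5, Cenpi, Cep55, D17H6S56E-5, Pclaf and Shcbp1, were in no list. The median interaction of the 24 was 2.2, made of a median rise of 4.78 in KO against 2.47 in WT. These are medians of genes chosen by their interaction. Of the 24, 15 were under log2 4 on some KO day 1 array and 7 on every one, but 0 on any day 3 array. Part of the KO rise thus starts from dim values. The rise passed the test for all 24 in KO and for 21 in WT, where all 24 changes were above 0. At day 1 every KO array lay below every WT array for each of the 24, against 2.83% of the tested genes. Since the interaction holds the day 1 difference, that separation is not a separate result. At day 3 the groups overlapped for each of the 24, which was usual. Of all 11993 tested genes, 51 had every KO day 3 array above every WT day 3 array, and 44 had every one below. At day 1 itself, 14 of the 50 tested G2/M genes and 4 of the 43 tested G1/S genes passed as lower in KO, against 0.25% of all tested genes, and the list medians were -0.68 and -0.53.

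Calls rest on limma's moderated test, with p-values adjusted by the Benjamini-Hochberg method over all 11993 genes and a threshold of 0.05. Counts and shares of genes that rose, fell or changed are of genes that passed this test. Without WT day 3 replicate 2, 15 genes were higher and 1 lower, and 16 of the 25 genes were among them. With the 15 arrays, 9 genes were higher and 0 lower by limma. The count of higher genes also fell to 15 without KO day 1 replicate 3, 14 without KO day 1 replicate 4 and 15 without WT day 3 replicate 4, and rose to 51 without KO day 3 replicate 2. With all 8 groups of the study in the fit, 85 genes were higher and 18 lower. With the skeletal muscle mean as a covariate, chosen after the data were seen, 24 were higher and 1 lower. The part of neuron, macrophage or microglia genes in the result was not tested. In each of the 18 fits that left out 1 array, 14 genes passed, namely Top2a, Mki67, Cdca5, Cdk1, Cep55, Ccna2, Rrm2, Birc5, Mad2l1, Pclaf, Cdca8, Pbk, Bub1 and Cdca3.

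**Figure D1:**
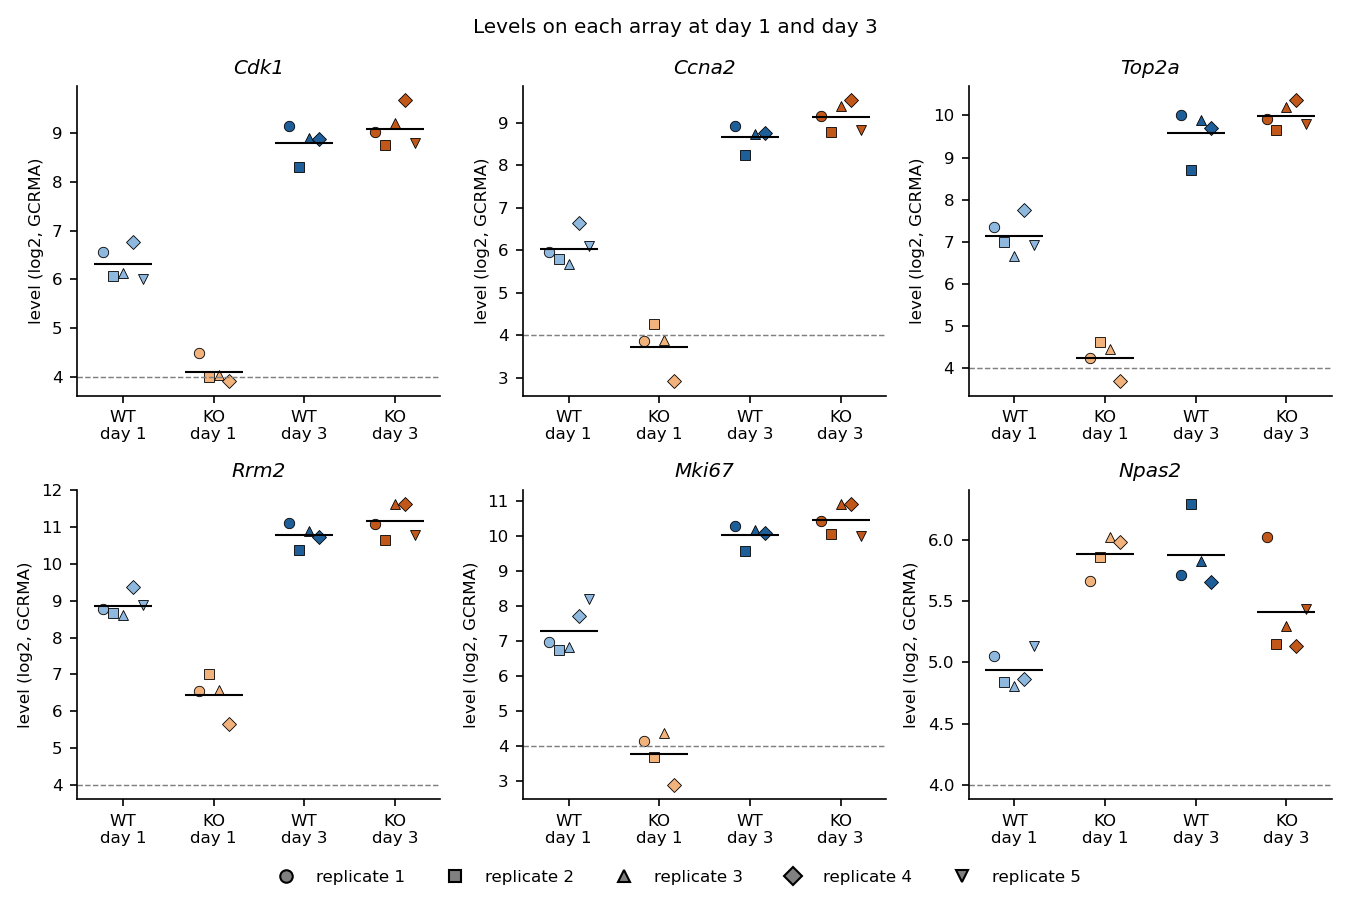
Log2 level of 6 genes on each of the 18 arrays, with WT in blue and KO in orange, a symbol for each replicate number, a bar at the group mean and a dashed line at log2 4. For the first 5 genes all KO day 1 arrays lie below all WT day 1 arrays and the day 3 groups overlap, while Npas2 starts higher in KO.

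The kinase and cyclins that drive division are given first. Cdk1 encodes the mitotic kinase. Its level on the WT day 1 arrays was 6.55, 6.07, 6.14, 6.77 and 6.0, against 4.50, 3.99, 4.04 and 3.91 on the KO day 1 arrays. At day 3 it was 9.14, 8.30, 8.91 and 8.88 in WT and 9.03, 8.75, 9.21, 9.68 and 8.79 in KO. The groups were thus apart at day 1 and intermixed at day 3. The rise was 2.50 ± 0.22 (SE) in WT, or 5.66-fold, and 4.98 ± 0.22 in KO, or at least 31.1-fold with values under log2 4 set to 4. The interaction was 2.48 ± 0.30 with a limma adjusted p of 0.00117, and 2.08 with the 15 arrays (adjusted p = 0.00873).

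Ccna2 encodes cyclin A2, which partners Cdk1 and Cdk2 in S and G2 phase. Its WT day 1 arrays read 5.96, 5.80, 5.68, 6.64 and 6.09 and its KO day 1 arrays 3.86, 4.27, 3.89 and 2.92, so that 3 of the 4 KO arrays were under log2 4. By day 3 the WT arrays had 8.92, 8.24, 8.74 and 8.76 and the KO arrays 9.17, 8.77, 9.39, 9.53 and 8.83. The rise was 6.19-fold in WT and at least 33.6-fold in KO, with an interaction of 2.77 ± 0.36 (limma adjusted p = 0.00155). Ccne2, a partner of Cdk2 at the start of S phase, behaved otherwise in WT, where its change of 0.27 did not pass the test. In KO, where the day 1 arrays read 6.06 to 6.19, it rose by 1.87. Its interaction was 1.60 ± 0.29, which passed in 6 of the 18 fits that left out 1 array. Cdca3, a trigger of mitotic entry, had an interaction of 1.85 ± 0.31, with all 4 KO day 1 arrays under log2 4.

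Promoters of 4 of the called genes are shown because their arrays were apart at day 1 and overlapped at day 3, and because they hold marked letters; they were picked after the sequences were seen. Cdk1 and Top2a are in the G2/M list, and Cdca5 and Pclaf are in no list. In the same window Birc5, Cenpi, Mad2l1 and Nusap1 held none of the 3 motifs searched. The 120 bases before the annotated start come from RefSeq, build GRCm38.p6, read 5′ to 3′ on the gene's strand. Capitals mark the CHR letters TTTGAA and the CCAAT box, both searched on both strands. Cdk1 lies at chr10:69352913-69353032 and Top2a at chr11:99024190-99024309, both on the minus strand. Cdca5 lies at chr19:6084977-6085096 and Pclaf at chr9:65890203-65890322, both on the plus strand.
Cdk1: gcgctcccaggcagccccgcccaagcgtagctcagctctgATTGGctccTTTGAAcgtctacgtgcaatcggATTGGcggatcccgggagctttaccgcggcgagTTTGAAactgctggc
Top2a: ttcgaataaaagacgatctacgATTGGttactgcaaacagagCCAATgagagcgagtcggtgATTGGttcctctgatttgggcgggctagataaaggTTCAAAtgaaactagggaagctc
Cdca5: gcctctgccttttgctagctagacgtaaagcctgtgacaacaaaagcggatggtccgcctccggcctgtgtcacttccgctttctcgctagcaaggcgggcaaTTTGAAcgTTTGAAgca
Pclaf: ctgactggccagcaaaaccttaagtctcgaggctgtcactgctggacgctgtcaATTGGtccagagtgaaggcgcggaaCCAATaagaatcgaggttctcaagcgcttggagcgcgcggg

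Within the 250 bases before the start, the CHR letters occurred in 14 of the 41 G2/M genes that had a promoter entry (34.15%), against 12.55% of the tested genes with an entry and 18.26% of all genes with one. The CCAAT box occurred in 30 of those 41 (73.17%), against 40.3% of tested genes and 37.49% of all. For E2F, the letters TTTCCCGC, TTTGGCGC and TTTCGCGC were searched on both strands. They occurred in 10 of 35 G1/S genes (28.57%), against 3.344% of tested genes and 1.776% of all. Among the 24 genes that were called higher, 19 had an entry, of which 6 held the CHR letters, 12 the CCAAT box and 3 an E2F site. These are letter matches and say nothing of binding.

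The genes of DNA synthesis came next. Rrm2 encodes the small subunit of ribonucleotide reductase, which makes deoxynucleotides. It was well above log2 4 on every array, with 8.77, 8.66, 8.62, 9.38 and 8.90 at WT day 1 and 6.54, 7.01, 6.58 and 5.67 at KO day 1. At day 3 the WT arrays read 11.10, 10.37, 10.90 and 10.74 and the KO arrays 11.08, 10.66, 11.64, 11.63 and 10.78. The 2 groups overlapped at day 3, after a 3.77-fold rise in WT and a 26.2-fold rise in KO. The interaction was 2.79 ± 0.37 by limma (adjusted p = 0.00206), and 2.34 with the 15 arrays. Rrm1, the large subunit, had a smaller one of 0.94 ± 0.17 (adjusted p = 0.0248), with rises of 0.79 in WT and 1.73 in KO.

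Top2a, the topoisomerase that untangles sister DNA, had 7.35, 6.99, 6.67, 7.76 and 6.91 at WT day 1 and 4.25, 4.61, 4.47 and 3.69 at KO day 1. Its day 3 levels were 10.02, 8.70, 9.88 and 9.70 in WT and 9.90, 9.66, 10.21, 10.36 and 9.79 in KO, with WT replicate 2 the lowest. The rise was 5.42-fold in WT and at least 50.3-fold in KO. Its interaction of 3.29 ± 0.39 was 3.00 without WT day 3 replicate 2 and 2.80 with the 15 arrays, and its limma adjusted p was under the threshold in all 3 fits (0.00117, 0.00174 and 0.00873).

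Pclaf, a PCNA-binding factor, ran from 7.62 to 8.57 at WT day 1 and from 5.21 to 6.28 at KO day 1. At day 3 it ran from 8.76 to 9.73 in WT and from 9.26 to 10.50 in KO. The interaction was 2.59 ± 0.41. Uhrf1, which carries DNA methylation through replication, did not pass the test of change in WT (0.53) and rose by 2.33 in KO, with an interaction of 1.80 ± 0.32. Atad2, a chromatin ATPase that also answers to E2F, showed the same form at lower contrast, with 0.51 in WT, 1.89 in KO and an interaction of 1.38 ± 0.26. Uhrf1 and Atad2 passed in 12 and 4 of the 18 fits that left out 1 array. Cdca5 encodes sororin, which holds sister chromatids together. Its KO day 1 arrays were all under log2 4 (2.49 to 3.19) against 4.78 to 5.63 in WT, and its interaction of 2.64 ± 0.32 was 1.62 with values under 4 set to 4 (adjusted p = 0.0414).

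Mki67, the proliferation antigen that coats mitotic chromosomes, had the largest interaction of the 24 genes. It read 6.96, 6.75, 6.81, 7.69 and 8.20 at WT day 1 and 4.12, 3.66, 4.35 and 2.87 at KO day 1. At day 3 it read 10.27, 9.56, 10.17 and 10.09 in WT and 10.43, 10.04, 10.92, 10.92 and 10.01 in KO. The KO arrays thus went from below every WT array to a range that overlapped WT, with 3 of the 5 above every WT array. The rise was 6.69-fold in WT and at least 81.3-fold in KO, with an interaction of 3.97 ± 0.47 (limma adjusted p = 0.00117). Pbk, a mitotic kinase, had 3.16 ± 0.50, below Top2a, from 3.34 to 4.09 at KO day 1 to 9.82 to 10.80 at KO day 3.

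Kinetochore and checkpoint genes were part of the set. Mad2l1, which encodes the Mad2 checkpoint protein, was measured above log2 6 on every array, with 7.45, 7.52, 7.57, 7.78 and 7.36 at WT day 1 and 6.42, 6.59, 6.69 and 6.45 at KO day 1. Its day 3 values were 8.92, 8.99, 8.90 and 8.80 in WT and 8.96, 8.67, 9.13, 9.46 and 8.94 in KO. The interaction was 1.13 ± 0.18, the smallest of the 9 that also passed with the 15 arrays (0.99). Bub1, a checkpoint kinase, gave 2.59 ± 0.42, but its KO day 1 arrays were 2.17 to 2.64, and with values under 4 set to 4 the interaction was 1.05 (limma adjusted p = 0.446). Cenpi, a centromere protein, was under 4 on all KO day 1 arrays and on 4 of 5 WT day 1 arrays. Its interaction of 1.62 ± 0.30 fell to 0.45 on the same scale.

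The chromosomal passenger complex was represented by Birc5 (survivin) and Cdca8 (borealin). Birc5 had 5.83 to 6.48 at WT day 1, 3.26 to 4.70 at KO day 1, 8.60 to 9.20 at WT day 3 and 8.75 to 9.87 at KO day 3. Its interaction was 2.80 ± 0.39 (limma adjusted p = 0.00255). Cdca8 gave 2.30 ± 0.37, with 5.46 to 6.56 at WT day 1 and 3.30 to 4.18 at KO day 1. The other members of the complex did not pass, with 0.97 for Incenp and 0.64 for Aurkb.

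Genes of the spindle midzone and of cytokinesis closed the set. Cep55, which brings the abscission machinery to the midbody, read 6.01, 5.91, 5.76, 6.48 and 5.09 at WT day 1 and 3.59, 3.74, 3.58 and 3.19 at KO day 1. At day 3 it ran from 7.98 to 8.79 in WT and 8.64 to 9.43 in KO. The interaction was 2.74 ± 0.34 (limma adjusted p = 0.00126). Ect2, which activates RhoA for furrowing, gave 1.95 ± 0.35, Shcbp1, a midbody protein, 2.11 ± 0.37, Nusap1, a spindle microtubule binder, 1.94 ± 0.35, and Kif23, a midzone kinesin, 1.66 ± 0.32. Kif23 was under log2 4 on all 9 day 1 arrays, so its contrast at day 1 lay among dim values. With values under 4 set to 4, the calls of Kif23, Nusap1, Ect2, Bub1, Cenpi, Cdca3, Atad2 and D17H6S56E-5 were lost, and 17 of the 25 remained. The levels of Atad2 (lowest 6.73) and D17H6S56E-5 (lowest 4.45) were all above 4 and did not change in that fit. Other probe sets past the filter existed for 8 called genes, 10 in all. All 10 had the direction of the one chosen, and 4 were called over all probe sets. The rest did not pass, at 0.22 for Top2a, 0.49 for Cdca8, 0.62 for Rrm2, 0.71 for Rrm1, 0.78 for Cdca5 and 2.19 for Pclaf. All of those except the one for Rrm1 averaged under log2 4 on the KO day 1 arrays.

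**Figure D2:**
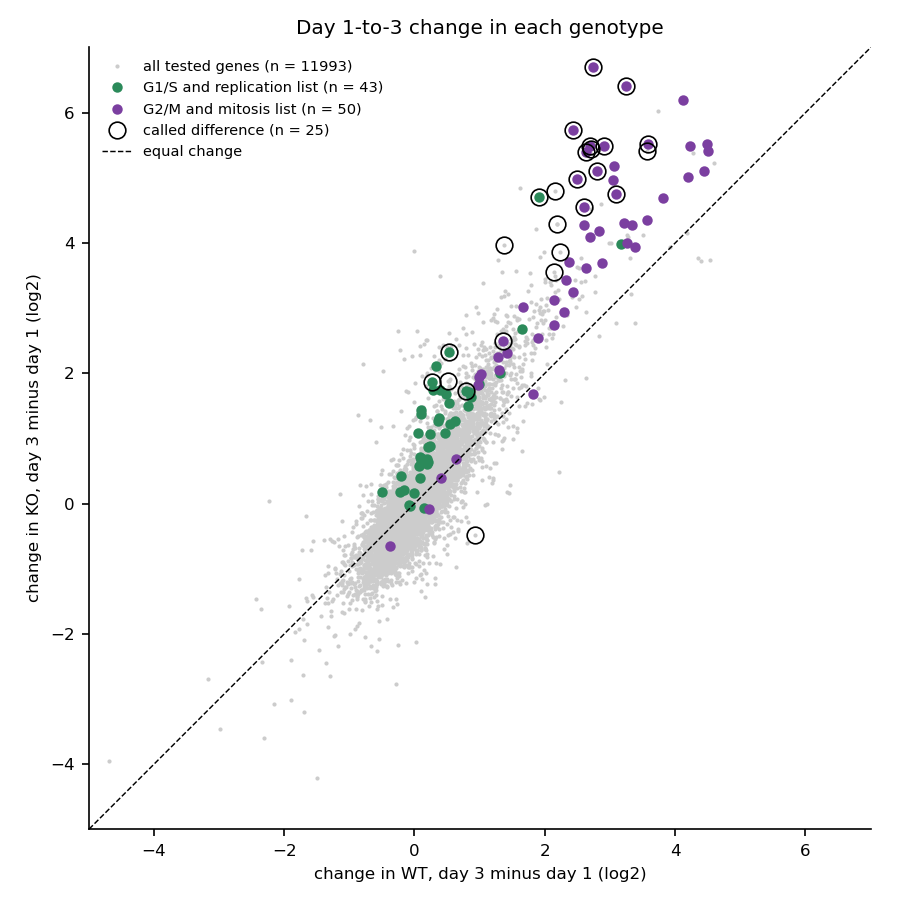
Day 3 minus day 1 change of each of the 11993 tested genes in WT (horizontal) and KO (vertical), both in log2 units, with G1/S genes in green, G2/M genes in purple and the 25 called genes circled. Most cell cycle genes lie above the dashed line of equal change, and Npas2 is the circled gene below it.

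The whole G2/M list widened this view. Of its 53 genes, 50 were tested, and Ccnb1 is among the 3 not analysed here. In WT 47 of the 50 passed as rising, with 49 above 0, and 1 passed as falling. In KO 48 passed as rising and 1 as falling. The gene that fell in both was Anln. Over all tested genes 11.4% rose and 9.29% fell in WT, and 20.1% rose and 24.8% fell in KO. The median change of the list was 2.64 in WT and 4.14 in KO, against -0.03 and -0.05 over all genes. Of the 50, 12 passed the test of the interaction, all higher, against 0.2% of all tested genes. Values were above 0 for 46 of the 50, against 5663 of 11993 genes. The median interaction was 0.98 for the list and -0.02 for all genes, and it was 0.59 with the 15 arrays. On the KO day 1 arrays 26 of the 50 were under log2 4 throughout, and with values under 4 set to 4 the median was 0.67. Many of them passed the filter on low values through their day 3 levels.

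Other mitotic genes did not pass. Ccnb2, Aspm and Cenpf rose by 4.50, 4.48 and 4.44 in WT, among the 5 largest rises there, and by 5.42, 5.52 and 5.11 in KO. Their interactions of 0.92, 1.03 and 0.67 did not pass. All 3 genes were under or near log2 4 in both genotypes at day 1, and whether this bears on the calls was not tested. Pttg1, which encodes securin, had an interaction of -0.29 and Anln, an actin-binding furrow protein, of -0.28, and neither passed. Just outside the threshold were Spc25 (2.11, adjusted p = 0.0529) and Ube2c (2.08, adjusted p = 0.0529), a kinetochore subunit and the ubiquitin carrier of the anaphase-promoting complex. Outside the lists, Zwilch, Cenpk, Ptgr1, Fbxo5, Slamf9 and Cks1b had adjusted p-values between 0.05 and 0.1, a group named after its values were seen.

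In the G1/S list more members passed as rising in KO than in WT. Of 50 genes, 43 were tested. In all, 11 of the 43 passed as rising in WT, against 36 in KO, and none passed as falling in either. Over all tested genes 11.4% passed as rising in WT and 20.1% in KO, and 9.29% and 24.8% as falling. The median change was 0.24 in WT and 1.23 in KO. The interaction passed for 4, Rrm2, Uhrf1, Ccne2 and Rrm1, all higher, against 0.2% of all tested genes. It was above 0 for 42 of 43, against 5663 of 11993 genes, with a list median of 0.67, or 0.45 with the 15 arrays. The 6 MCM genes, which encode the replicative helicase, had interactions from 0.65 (Mcm4) to 1.35 (Mcm2), none of which passed. Mcm3 is an example, with 8.23, 7.98, 7.84, 8.26 and 7.80 at WT day 1 and 7.43, 7.51, 6.94 and 6.81 at KO day 1. It rose by 1.37 in KO, while its change of 0.11 in WT did not pass, and the interval of its interaction ran from 0.57 to 1.95. Cdc6, which loads the helicase, had 1.79 (adjusted p = 0.132). Pcna, the replication clamp, was high throughout and had 0.51, from a rise of 0.58 in KO and 0.07 in WT, which did not pass. Ccnd1, which encodes cyclin D1, had 0.62 with a limma adjusted p of 0.464.

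The mean level over the tested members of each list was taken on every array. For G2/M it was 4.94 to 5.48 at WT day 1, 4.10 to 4.29 at KO day 1, 7.13 to 7.93 at WT day 3 and 7.65 to 8.47 at KO day 3. For G1/S it was 7.15 to 7.51, 6.59 to 6.84, 7.57 to 7.85 and 7.60 to 8.36 in the same order. In both lists the 2 highest day 3 arrays were KO replicates 3 and 4, and the day 1 groups did not overlap. Singly, 28 of the 50 G2/M genes and 25 of the 43 G1/S genes had every KO day 1 array under every WT day 1 array, against 2.83% of the tested genes. In the G2/M list 26 genes were under log2 4 on all KO day 1 arrays and 15 on all WT day 1 arrays. In the G1/S list these counts were 3 and 1. Part of the G2/M separation can thus be order among dim values.

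**Figure D3:**
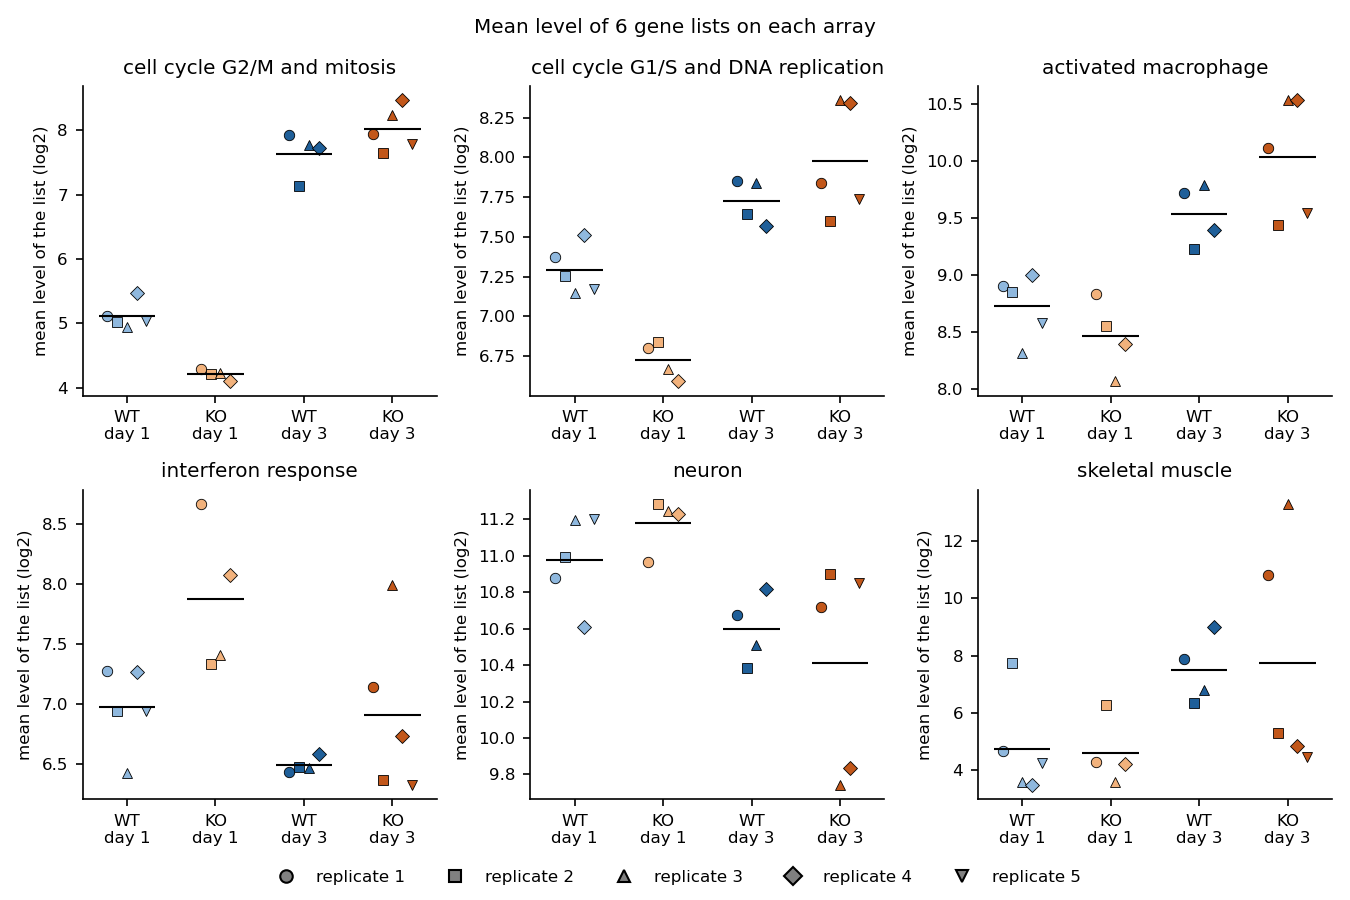
Mean log2 level over the tested members of 6 gene lists on each of the 18 arrays, with a symbol for each replicate number and a bar at the group mean. Both cell cycle lists separate the genotypes at day 1 and not at day 3, and the skeletal muscle mean is highest on KO day 3 replicates 1 and 3.

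Whether the KO cord drew level was asked of the genes that differed at day 1, using their day 3 difference, which comes from separate arrays. At day 1, 30 genes were lower in KO (0.25% of those tested) and 4 were higher (0.0334%). The count of 34 was 71 without WT day 3 replicate 2, 20 without KO day 1 replicate 3 and 18 without KO day 1 replicate 4. Of the 24 genes with a called higher interaction, 22 were among the 30, the exceptions being Rrm1 and Atad2. Since the interaction holds the day 1 difference, it adds no separate evidence for those genes. The 30 genes had a median of -1.61 at day 1, from -3.53 (Mki67) to -0.37 (Nedd4).

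At day 3 the median of these 30 genes was 0.40, from 0.01 to 0.52, and all 30 were above 0, against 5927 of the 11993 tested genes. None of the 30 was called at day 3. With no array left out, the 95% interval held 0 for 29 of them, Kif23 being the exception at 0.04 to 1.01. For all 30 that interval excluded a deficit of 50% of the day 1 value. The genes were chosen by their day 1 value, which can make it too large and the 50% limit easier to clear. That limit was not tested with the 15 arrays, so it does not settle whether the KO cord drew level. Without WT day 3 replicate 2 the median was 0.21. Without KO day 3 replicates 3 and 4 it was 0.13, and with the 15 arrays it was -0.03 with 9 of 30 above 0. In none of these 4 sets of arrays was the median below -0.03, and a median above 0 depended on those 3 arrays.

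Over all genes, few differences between the genotypes passed at day 3. By limma 2 genes were higher in KO (0.0167%) and 0 lower (0%), with 463 and 240 at an unadjusted p under 0.05. Ntrk2 itself is not among them because its brightest probe set, which stood for the gene, is not one of those lost in KO; probe sets 1420838_at and 1435196_at were at -6.76 and -6.26 (KO minus WT, log2) at day 3. With the 15 arrays 0 genes passed, and without KO day 3 replicate 2, 4 passed. The 2 genes were Dapk1, a death-associated kinase, and Cd59a, an inhibitor of the complement membrane attack complex. Both already differed at day 1. Dapk1 had 6.0, 6.24, 6.14, 5.75 and 6.11 at WT day 1 and 7.04, 7.29, 6.74 and 6.92 at KO day 1, then 6.83, 6.42, 6.28 and 6.40 in WT and 7.56, 7.49, 7.31, 7.50 and 7.52 in KO at day 3. No KO array overlapped a WT array at either time. The difference was 0.95 at day 1 and 0.99 at day 3, with an interaction of 0.05 and an interval from -0.33 to 0.43. Cd59a differed by 0.86 and 0.91, with an interaction of 0.05 and an interval from -0.30 to 0.39. Ess2, the fourth gene that was higher in KO at day 1, by 0.71, was at -0.04 at day 3.

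**Figure D4:**
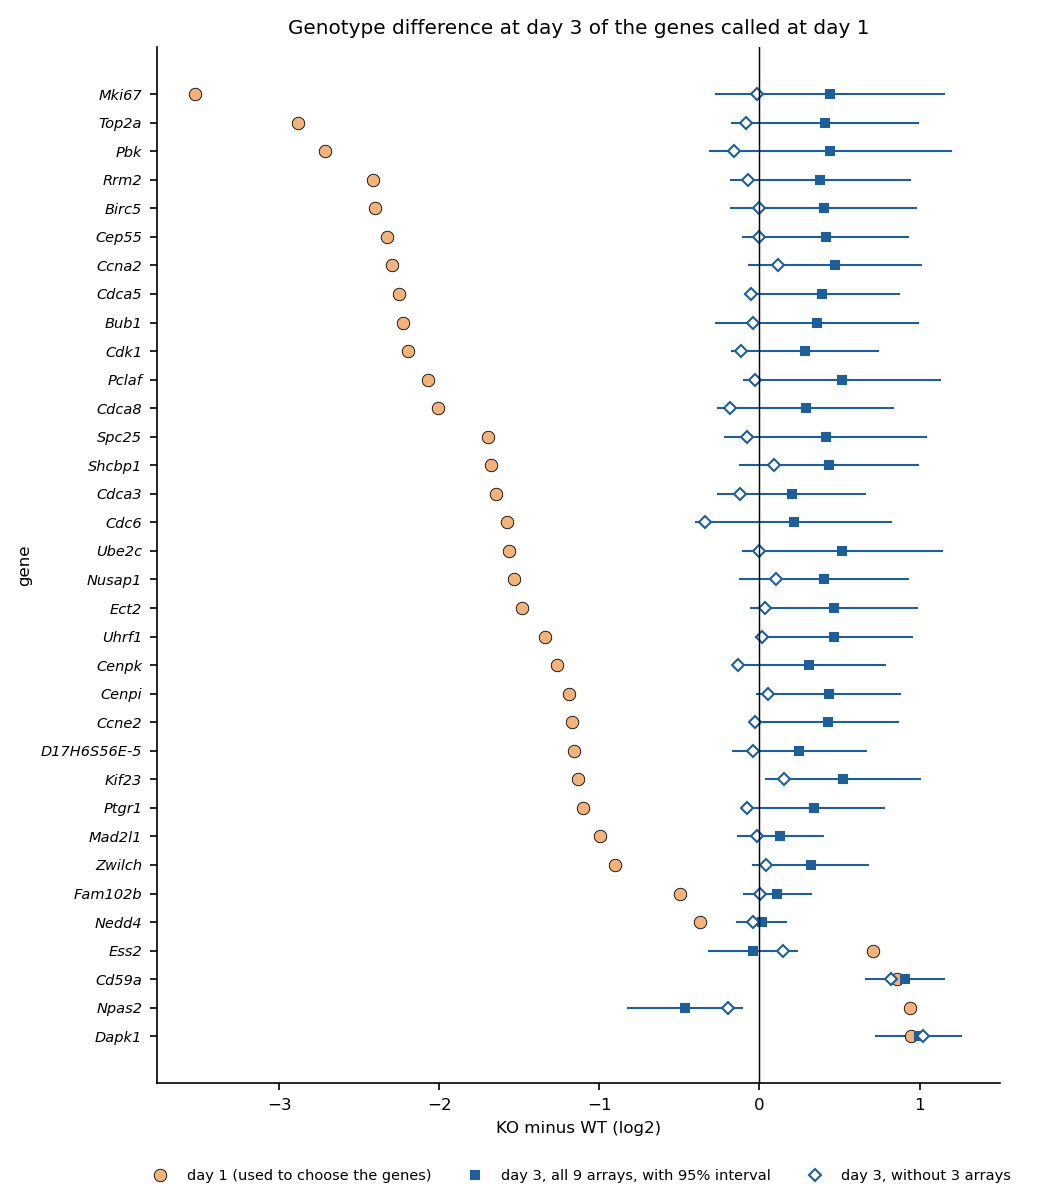
KO minus WT difference (log2) of the 34 genes called at day 1, shown at day 1 (circles), at day 3 on all 9 arrays with the 95% interval (squares and lines) and at day 3 without the 3 arrays that stand apart (open diamonds). The 30 genes that were lower at day 1 have day 3 values from 0.01 to 0.52, and Dapk1 and Cd59a keep their distance.

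Npas2 was the one gene whose interaction was called below 0. It encodes a partner of Arntl (Bmal1) in the circadian clock. Its levels were 5.05, 4.84, 4.81, 4.86 and 5.13 at WT day 1 and 5.66, 5.86, 6.02 and 5.98 at KO day 1. At day 3 they were 5.71, 6.30, 5.83 and 5.65 in WT and 6.02, 5.15, 5.30, 5.13 and 5.44 in KO. KO was above WT on every array at day 1, and the groups overlapped at day 3 through KO replicate 1. It rose by 0.93 in WT and fell by 0.47 in KO, with an interaction of -1.41 ± 0.24 (limma adjusted p = 0.0157). The call was lost without KO day 1 replicate 3 or 4, and the interaction was -1.14 with the 15 arrays (adjusted p = 0.118). Among the other 12 clock genes tested none passed. Arntl had -0.65 (adjusted p = 0.2), from 6.69 to 7.00 at WT day 1 and 7.15 to 7.53 at KO day 1, and Per3 had 0.65 (adjusted p = 0.45).

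The next 4 genes below 0 by p-value were Hhipl1 at -0.44, 9530077C05Rik, Gramd4 at -0.39 and Cited1 at -1.25. None passed, with limma adjusted p-values of 0.105 for Hhipl1, 0.146 for Gramd4 and 0.156 for Cited1.

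Lists of phagocytes and matrix cells had medians above 0 with no member called. Of 16 homeostatic microglia genes all were above 0, with a median interaction of 0.74. The median change was 1.51 in WT and 2.23 in KO, and 15 rose in each. Gpr34, a microglial receptor, had 6.75 to 7.19 at WT day 1 and 5.76 to 6.46 at KO day 1, and its interaction of 1.49 ± 0.46 did not pass (limma adjusted p = 0.359). The median of the list was 0.44 with the 15 arrays. All 26 activated macrophage genes were above 0, with a median of 0.74. Of these 26, 12 rose in WT and 19 in KO, where 11.4% and 20.1% of all tested genes rose. Ms4a7, a macrophage surface gene, had 2.65 ± 0.68 (adjusted p = 0.201). Gpnmb, a glycoprotein of lipid-laden phagocytes, had 6.20 to 8.53 at WT day 1, 3.84 to 6.99 at KO day 1, 9.69 to 11.83 at WT day 3 and 11.20 to 12.58 at KO day 3. Its interaction of 2.29 had an interval from 0.51 to 4.07 and did not pass. The medians of the 17 lipid-laden phagocyte genes (0.79) and the 23 fibroblast and matrix genes (0.76) fell to 0.20 and 0.37 with the 15 arrays, and that of the 26 macrophage genes to 0.25. Without WT day 3 replicate 2 alone the lipid-laden phagocyte median was 0.46. The macrophage mean was highest on KO day 3 replicates 3 and 4, at 10.53 on both, against 9.44 to 10.11 on the other KO day 3 arrays.

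Lists with medians below 0 were led by genes that were high in KO at day 1. All 15 glucocorticoid-responsive genes were below 0, with a median of -0.79. It was -0.33 without WT day 3 replicate 2, -1.13 without KO day 3 replicates 3 and 4, and -0.67 without all 3. Their mean level was 9.42 to 9.98 at WT day 1 and 10.10 to 10.45 at KO day 1, with no overlap, and 11.10 on WT day 3 replicate 2 against 9.07 to 9.90 on the other day 3 arrays. Sgk1, a kinase induced by glucocorticoids, had an interaction of -1.03 (limma adjusted p = 0.525). Of 25 interferon response genes, 20 were not above 0, with a median of -0.50, or -0.78 with the 15 arrays. Gbp2, an interferon-induced GTPase, had 9.33 to 10.51 at WT day 1 and 11.02 to 11.50 at KO day 1, and fell by 1.89 in WT and 3.01 in KO. Its interaction of -1.12 ± 0.40 did not pass. No member of either list was called at day 1, where all 25 interferon genes were above 0 with a median of 0.94. Cdkn1a, the Cdk inhibitor p21, had -1.17 with an unadjusted interval from -2.25 to -0.08, and it did not pass the adjusted test. For this gene WT day 3 replicate 2 stood at 11.40 against 9.10 to 9.45 on the other WT day 3 arrays.

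**Figure D5:**
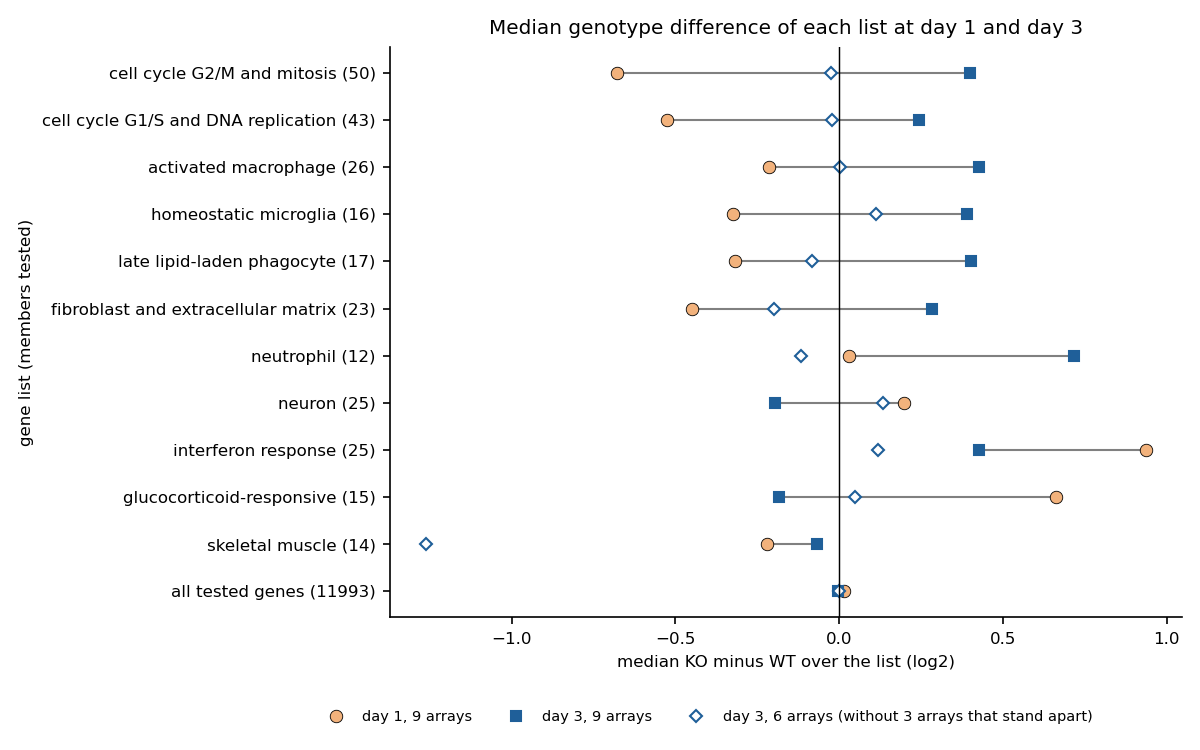
Median KO minus WT difference (log2) over the tested members of 11 gene lists and over all tested genes, at day 1 (circles), at day 3 on all 9 arrays (squares) and at day 3 on the 6 arrays left without the 3 that stand apart (open diamonds). The cell cycle medians go from -0.68 and -0.53 at day 1 to 0.40 and 0.24 at day 3, or to -0.03 and -0.02 on the 6 arrays.

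Across all genes, the change from day 1 to day 3 was passed by 1372 rising and 1114 falling genes in WT and by 2416 rising and 2977 falling genes in KO. Of the genes that rose in WT, 1239 also rose in KO, which is 90.3% of the WT set and 51.3% of the KO set. Of those that fell in WT, 920 also fell in KO, or 82.6% and 30.9%. The least squares slope of the KO change on the WT change over the 11993 genes was 1.31, with arrays of each genotype separate. Without WT day 3 replicate 2 it was 1.24, without KO day 3 replicates 3 and 4 it was 1.13, and with the 15 arrays 1.10. The counts called in WT and KO were then 4197 and 5031, so the excess in KO over all genes was smaller on those arrays. The 5 genes with the largest KO rises by the rule were Mki67, Pbk, Ube2c, Gpnmb and Top2a. Neuron genes had a median interaction of -0.43 over 25 members, with 16 falling in KO and 4 in WT, against 24.8% and 9.29% of all tested genes. It was 0.05 without KO day 3 replicates 3 and 4 and -0.07 with the 15 arrays. Bdnf, the ligand of TrkB, fell by 1.56 in KO, while its change of -0.70 in WT did not pass, and its interaction of -0.87 was -0.08 with the 15 arrays.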

How the data were processed

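Per the labels' protocols, RNA was extracted with Trizol, turned into biotinylated cRNA and put on 1 Affymetrix array a sample. The log2 levels of probe sets that were deposited came from GCRMA, which adjusts background by probe GC content and normalises arrays by quantiles; the submitters' processing notes name the tool without a version. They were used as deposited. Of 45101 probe sets, 34945 had 1 gene symbol in the platform annotation used here, and symbols were updated by Entrez ID against RefSeq tables of GRCm38.p6. Values under log2 4 were treated as dim.

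The limma package (3.58.1, lmFit and eBayes, under R 4.3.3) fitted a mean for each of 4 groups to the 18 arrays, with Benjamini-Hochberg adjustment over 11993 genes for each of 5 comparisons. Intervals are 95%. The code was tested on simulated data. The fit did not pair arrays by replicate number, and whether the numbers pair them was not settled. The correlations of deviations over 25 same-numbered pairs ran from -0.51 to 0.50, with 6 over 0.1. Between WT and KO at day 1 they were 0.25, 0.31 and 0.35 for numbers 1, 2 and 3 and -0.13 for number 4.

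Genes were named by rule: the 15 smallest p-values in each direction of the interaction among called genes (the 5 smallest where fewer pass), the cell cycle lists, 3 members of every other list, 10 genes for KO against WT at each time, the 5 largest changes in each genotype and a fixed set around Ntrk2 and the cell cycle. The called genes beyond the 15, the genes called at day 1 and those near the threshold were named after their values were seen. The comparison, the 32 gene lists (643 entries, 594 on the array) and the tests were chosen with earlier results of these data known. The alternatives tried were other filters, scalings, probe set choices and fits, covariates, array weights and leaving arrays out.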

Additional observations from a re-analysis of the deposited data

Results flagged for a closer look

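The change from day 1 to day 3 differed between the genotypes, by the test of the difference itself, for 25 genes. The log2 interactions were 3.97 for Mki67, 3.29 for Top2a, 3.16 for Pbk, 2.80 for Birc5, 2.79 for Rrm2, 2.77 for Ccna2, 2.74 for Cep55, 2.64 for Cdca5, 2.59 for Pclaf, 2.59 for Bub1, 2.48 for Cdk1, 2.30 for Cdca8, 2.11 for Shcbp1, 1.95 for Ect2, 1.94 for Nusap1, 1.85 for Cdca3, 1.80 for Uhrf1, 1.66 for Kif23, 1.62 for Cenpi, 1.60 for Ccne2, 1.41 for D17H6S56E-5, 1.38 for Atad2, 1.13 for Mad2l1 and 0.94 for Rrm1, and -1.41 for Npas2.

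An array far from the rest of its group was found in 8 of 176 groups of values, over 44 genes and list means, and chance gives about 1 in 20. Of the 8, 4 were WT day 3 replicate 2. It was lowest for Cep55 (7.98, others from 8.70), Pbk (8.62, others from 10.12) and the homeostatic microglia mean (8.24, others from 9.30), and highest for Cdkn1a (11.40, others to 9.45). On WT day 1 arrays, Bdnf was low on replicate 4 (6.91), Cdca8 high on replicate 4 (6.56) and the skeletal muscle mean high on replicate 2 (7.76). On KO day 1 replicate 1, Ntrk2 was low (10.44, others from 10.81).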

How the results depend on the processing

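With all 8 groups in the fit, 85 genes were higher and 18 lower in the interaction, 3915 changed in WT, 103 differed at day 1 and 4 at day 3. Without the filter on low values 14 were higher and 2 lower. With the mean of caudal Hox genes as a covariate 39 were higher, 3193 changed in KO and 55 differed at day 1. Array weights gave 3 lower genes, 5371 changed in WT, 240 at day 1, 4 at day 3, medians of 0.65 (G2/M) and 0.45 (G1/S), and a day 3 median of 0.020 for the genes called at day 1. With values under log2 4 set to 4 the G2/M median was 0.67. The main fit did not pair arrays by replicate number, and 3 of 18 arrays correlated best with their own number. With the replicate number as a block 22 genes were higher, 0 lower and 1 differed at day 3.

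Some alternatives were chosen after seeing the data. Without KO day 3 replicates 3 and 4, 14 genes were higher, 0 lower, 64 differed at day 1 and 0 at day 3. Without these and WT day 3 replicate 2, 9 were higher, 0 lower, 4197 changed in WT, 164 differed at day 1 and 0 at day 3, the G2/M median was 0.59 and the day 3 median turned to -0.027. The causes were not tested. With each array left out in turn, 14 to 51 genes were higher, 0 to 3 lower, 1796 to 2941 changed in WT, 4314 to 6203 in KO, 18 to 71 differed at day 1 and 2 to 4 at day 3. The medians ran from 0.82 to 1.14 (G2/M), 0.59 to 0.78 (G1/S) and 0.21 to 0.49 (day 3). No alternative turned the sign of a called gene. Small interactions that were not called did turn. Cd59a was -0.049 with array weights, -0.037 with the 15 arrays and -0.0051 to 0.14 with 1 array left out. Dapk1 was -0.027 with array weights and -0.037 to 0.16 with 1 array left out. Ntrk2 was 0.050 without KO day 3 replicates 3 and 4.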

Other observations

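Several gene groups changed from day 1 to day 3 in both genotypes with no member called in the interaction. Over all tested genes 9.29% fell and 11.4% rose in WT, and 24.8% fell and 20.1% rose in KO. Of 18 cholesterol biosynthesis genes, 16 fell in WT and 18 in KO, with median changes of -0.85 and -0.93 and a median interaction of -0.14. Insig1, a feedback regulator of this pathway, fell by 0.88 in WT and 1.44 in KO, from 11.68 to 11.82 at WT day 1 and 11.66 to 11.86 at KO day 1, and its interaction of -0.56 did not pass (limma adjusted p = 0.374). Of 20 genes of ribosome biogenesis and translation, 14 fell in WT and 16 in KO, and their interactions ran from -0.14 to 0.20. Of 13 complement genes, 5 passed as rising in WT and 7 in KO, so many did not. Their median interaction was 0.51, or -0.007 with the 15 arrays. One of them, C1qa, rose by 1.80 in WT and 2.31 in KO, and its interaction of 0.51 did not pass (limma adjusted p = 0.443).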
